A study of Mus musculus with 15 samples.

Results

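Glycolysis and the transcriptional response to low oxygen were followed through 34 genes in MC38 tumours, 24 h after an injection into the tumour. The members were set by name and found through their Ensembl gene identifiers, and all 34 were among the 17712 genes of the expression table. They comprised 21 genes of glycolysis, which are glucose transporters, enzymes and regulators of the pathway, and 13 genes of oxygen sensing and of the hypoxia response. MC38 is a mouse colon carcinoma line, here grown under the skin of C57BL/6 mice and injected when the tumours measured about 5 mm, and the labels give neither age nor sex. The labels call the samples biological replicates without naming the animals, so p-values measure the spread between these samples. There were 4 tumours injected with BO-112 (50 µg), in which poly I:C, a synthetic mimic of viral RNA, is packed with a polymer carrier, and 4 injected with DMXAA (100 µg), an agonist of mouse STING that is also known for disrupting tumour vessels. A further 4 tumours received both agents at these amounts, and 3 received vehicle, which was phosphate-buffered saline with 5% DMSO and 5% glucose. Each injection had a volume of 100 µL, and the labels give the composition of the vehicle for its own group alone.

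Glycolysis splits glucose into pyruvate, which lactate dehydrogenase can turn into lactate in place of oxidation in mitochondria. When oxygen is short, the prolyl hydroxylases that mark the HIF-1α protein for destruction lose their substrate, and HIF-1α then pairs with ARNT and binds a short DNA core, ACGTG or GCGTG, near genes of glucose uptake, glycolysis, angiogenesis and mitophagy. Many enzymes of the pathway exist as isozymes from separate genes, and the hypoxia response is known to act on some of them more than on others. RNA levels of the HIF-1α gene do not measure the protein, which is regulated chiefly by its breakdown.

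Levels are given as CPM, reads of a gene scaled to a common library size, and changes as differences on the log2 scale ± SE as estimated by limma, with p-values adjusted over all 17712 genes by the Benjamini-Hochberg method and a threshold of 0.05. The libraries held 12725316 to 19660511 reads. The mean of a member lay between 34.1 reads per library (Eno2) and 47685 (Gapdh), and the other members with a mean under 100 reads were Aldoc and Car9. Libraries stood apart within groups: the summed level of 16 skeletal muscle markers was 13.4 to 40.9 CPM in 11 tumours but 644 in BO-112 1, 1092 and 526 in DMXAA 1 and DMXAA 3, and 219 in vehicle 2. These 4 are called muscle-rich below. DMXAA 2 and DMXAA 3 were each set against the mean of all the other tumours. Genes with short transcripts stood 0.75 and 0.45 above that mean (medians, log2 scale) and genes with long transcripts 0.68 and 0.43 below it. BO-112 4 was the highest of all 15 tumours for 27 of the 34 members, and DMXAA 2 the lowest for 12. Summed erythroid markers (5 genes) were 240.04 CPM in BO-112 4 and 99.3 CPM in BO-112 1, against 7.77 to 61.3 CPM in the other 13 tumours. Summed adipocyte markers (8 genes) were 311 CPM in BO-112 2, 194 CPM in DMXAA 1 and 349.9 CPM in DMXAA 2, against 8.95 to 88.9 CPM in the other 12. The part of blood and fat in the results was not tested. Of 6 markers of epithelial carcinoma cells, 3 were measured, with a summed level of 6.67 to 11.7 CPM in BO-112 tumours, 14.6 to 40.5 CPM in DMXAA tumours, 9.38 to 27.2 CPM with both agents and 27.7 to 85.4 CPM in vehicle tumours, and the other 3 were not analysed here. Of the 3 measured markers, 2 had a negative change with BO-112 and 1 a positive change. In bulk tumour RNA, fewer cells of a type and less RNA per cell cannot be told apart.

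BO-112 alone was the injection with which the largest number of members changed. Of the 34 members, 16 rose and 2 fell in BO-112 against vehicle tumours, where 7.64% of all genes were called higher and 4.31% lower. The median member changed by 0.59 on the log2 scale against -0.04 for all genes, 29 members had a positive change, and 21 lay wholly above the vehicle tumours, as did 18.1% of all genes. Among the 21 glycolysis genes 9 rose and 2 fell, and among the 13 hypoxia genes 7 rose. The members that rose were Slc2a1, Hk2, Pfkl, Aldoa, Tpi1, Pgk1, Eno2, Ldha and Pfkfb3 of glycolysis, and Hif1a, Bnip3, Bnip3l, Ndrg1, P4ha1, Adm and Vegfa of the hypoxia response, and those that fell were Aldoc and Pfkfb4. Without BO-112 4, 13 members rose and 2 fell. Without the 4 muscle-rich libraries, 9 rose and 2 fell. Of all genes, 2116 were called with all libraries, 1612 without BO-112 4 and 1090 without the muscle-rich libraries.

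**Figure D1:**
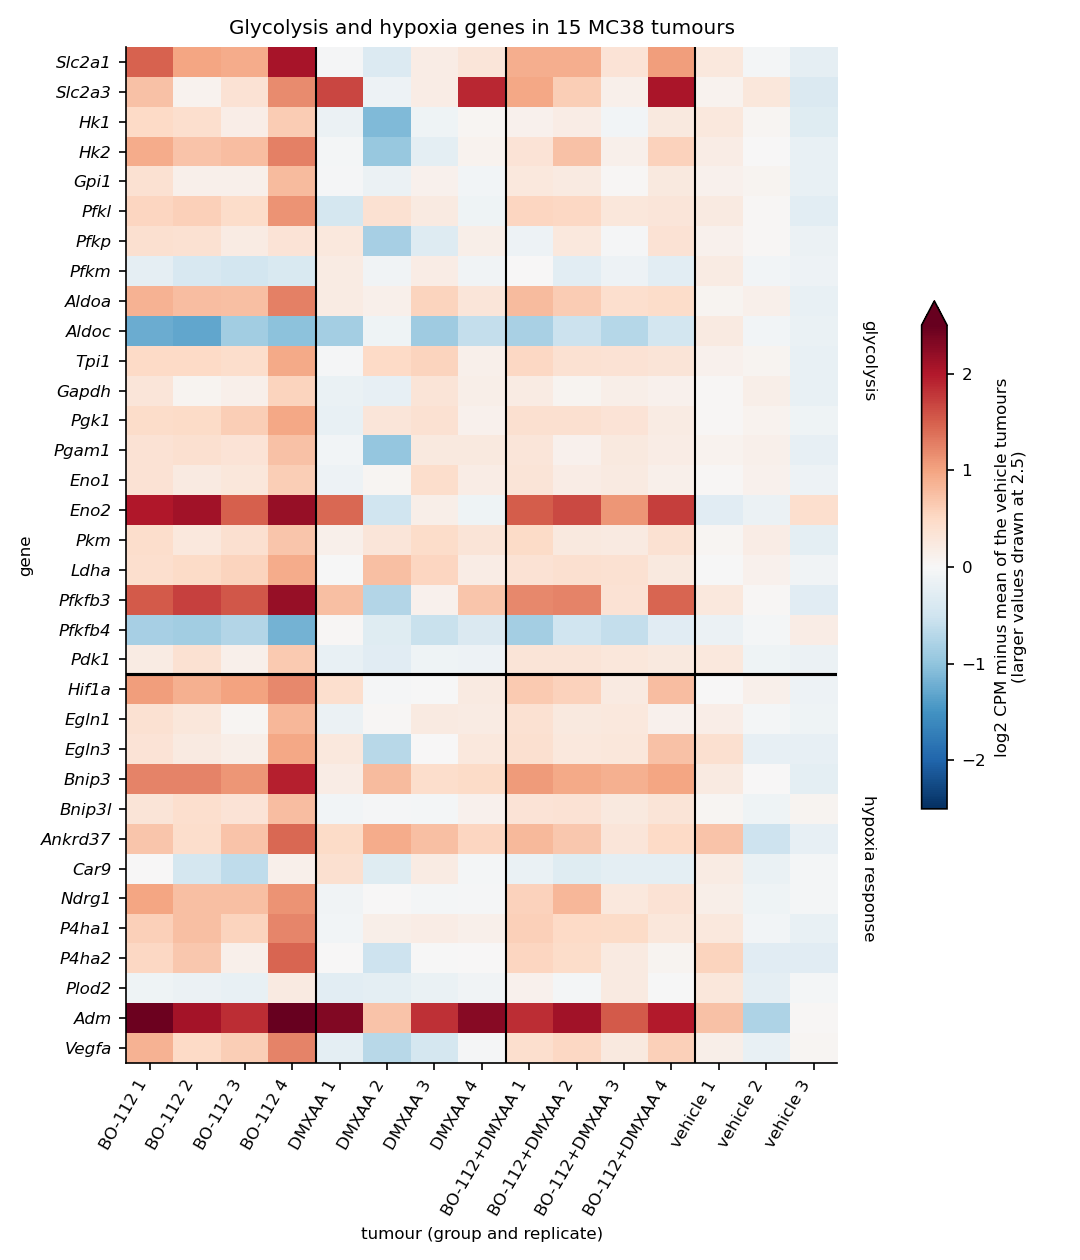
Level of each of the 34 genes (rows) in each of the 15 tumours (columns), as log2 CPM minus the mean of the 3 vehicle tumours. Colours run to 2.5 in both directions, and Adm in BO-112 4 lies beyond that. The BO-112 columns are redder than the vehicle columns for most rows, while Aldoc, Pfkfb4 and Pfkm are bluer.

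Glucose enters cells through facilitative transporters. Slc2a1 (ENSMUSG00000028645.12), which encodes GLUT1, the widely expressed transporter, stood at 398, 282, 272 and 592 CPM in BO-112 tumours, 140.2, 113, 161 and 176 CPM in DMXAA tumours, 267, 266, 180.3 and 292 CPM in tumours given both agents, and 170.1, 138 and 122 CPM in vehicle tumours. The lowest BO-112 tumour was above the highest vehicle tumour, the DMXAA and vehicle ranges overlapped, and the tumours given both agents lay above the vehicle tumours. Slc2a1 rose 2.58-fold with BO-112 (log2 fold change 1.37 ± 0.25, adjusted p = 0.002), and the change was 1.31 when the 4 muscle-rich libraries were left out (adjusted p = 0.0522). Slc2a3, the high-affinity transporter GLUT3, ranged over 4.66 to 9.98 CPM in BO-112 tumours, 4.04 to 16.3 CPM in DMXAA tumours, 4.79 to 18.1 CPM with both agents and 3.41 to 5.36 CPM in vehicle tumours, and did not pass the test against vehicle.

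Hexokinase traps glucose in the cell by phosphorylating it. Hk2 (ENSMUSG00000000628.11), the hexokinase known to be inducible in tumours and under hypoxia, stood at 229, 197, 205 and 290.3 CPM in BO-112 tumours, 117, 62.9, 102 and 128 CPM in DMXAA tumours, 152, 202, 132 and 181 CPM in tumours given both agents, and 138, 121 and 106 CPM in vehicle tumours. The BO-112 tumours lay above all DMXAA and vehicle tumours, and DMXAA 2 was the lowest of the 15. Hk2 rose 1.89-fold with BO-112 (log2 fold change 0.92 ± 0.22, adjusted p = 0.0128), a call that was lost without vehicle 3, with scaling by total count (0.76, adjusted p = 0.0565) and without the muscle-rich libraries (0.91, adjusted p = 0.108). Hk1, the constitutive form, averaged 209 ± 28.2 CPM in BO-112 tumours and 157 ± 30.2 CPM in vehicle tumours (mean ± SD here and below, n = 4 and 3) and did not pass the test (log2 fold change 0.42 ± 0.23). Gpi1, the next enzyme, averaged 615 ± 143 CPM with BO-112 and 474 ± 50.1 CPM with vehicle, with an adjusted p of 0.147.

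Phosphofructokinase commits sugar to glycolysis and has a liver, a platelet and a muscle form, named for where they were found. Pfkl, the liver form, rose to 282 ± 64.1 CPM in BO-112 tumours, against 175 ± 28.5 CPM in vehicle tumours (log2 fold change 0.68 ± 0.19, adjusted p = 0.0346), a call that was lost without any one of BO-112 1, 2 and 4 and vehicle 2 and 3, without the muscle-rich libraries, with scaling by total count and with a replicate block. Pfkp averaged 95.6 ± 5.70 CPM with BO-112 and 76.3 ± 6.95 CPM with vehicle (adjusted p = 0.352). Pfkm, the muscle form, averaged 54.7 ± 3.81 CPM in BO-112 tumours and 70.8 ± 8.80 CPM in vehicle tumours, with every BO-112 tumour below every vehicle tumour and an adjusted p of 0.0547.

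The activity of phosphofructokinase is set by a sugar bisphosphate that the PFKFB enzymes make and remove. Pfkfb3 (ENSMUSG00000026773.20), the form with the strongest kinase activity and a known HIF-1 target, stood at 167, 187, 167 and 261 CPM in BO-112 tumours, 96.3, 34.3, 61.5 and 92.1 CPM in DMXAA tumours, 131, 135, 73.6 and 157 CPM in tumours given both agents, and 68.3, 58.3 and 47.1 CPM in vehicle tumours. All 4 BO-112 tumours lay above the other 11, and the DMXAA tumours ranged from below to above the vehicle tumours. Pfkfb3 rose 3.35-fold with BO-112 (log2 fold change 1.75 ± 0.32, adjusted p = 0.00219). Pfkfb4 (ENSMUSG00000025648.19), the testis-type form that is also described as induced by hypoxia in tumour cells, stood at 16.2, 15.7, 17.2 and 12.6 CPM in BO-112 tumours, 29.1, 23.2, 19.6 and 22.3 CPM in DMXAA tumours, 15.9, 20.4, 19.1 and 23.7 CPM in tumours given both agents, and 26.0, 27.9 and 32.6 CPM in vehicle tumours. It was lower than in any vehicle tumour in all 4 BO-112 tumours and in all 4 tumours given both agents. Pfkfb4 fell by 0.91 ± 0.17 on the log2 scale with BO-112 (adjusted p = 0.00191), the opposite direction to Pfkfb3. Both calls held without each of the 15 libraries in turn.

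Aldolase splits the sugar bisphosphate into trioses. Aldoa (ENSMUSG00000030695.17), the main glycolytic form, stood at 1322, 1234, 1223 and 1730.5 CPM in BO-112 tumours, 834, 795, 1067 and 897 CPM in DMXAA tumours, 1249.7, 1126, 968 and 989 CPM in tumours given both agents, and 758, 789 and 636 CPM in vehicle tumours. The BO-112 tumours, and those given both agents, were all above the vehicle tumours, and so were the DMXAA tumours by a smaller margin. Aldoa rose 1.88-fold with BO-112 (log2 fold change 0.91 ± 0.15, adjusted p = 0.00108). A second identifier with the same symbol had 0.34 to 3.62 CPM over the 15 tumours and was left out. Aldoc (ENSMUSG00000017390.16), the form known from brain, stood at 3.15, 3.04, 4.09 and 3.67 CPM in BO-112 tumours, 4.17, 6.98, 4.05 and 4.98 CPM in DMXAA tumours, 4.28, 5.19, 4.57 and 5.48 CPM in tumours given both agents, and 8.79, 7.17 and 6.67 CPM in vehicle tumours. Every BO-112 tumour was below every vehicle tumour, and vehicle 1 was the highest of the 15. Aldoc fell by 1.11 ± 0.21 on the log2 scale with BO-112 (adjusted p = 0.00217). Per kilobase of transcript, Aldoa stood at 889 ± 155 CPM in BO-112 tumours and 469.7 ± 52.3 CPM in vehicle tumours, and Aldoc at 1.25 ± 0.175 CPM and 2.71 ± 0.397 CPM in the same groups, so the form that fell was the minor one in these tumours.

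The later, triose part of the pathway yields ATP and ends in pyruvate. Tpi1, triose phosphate isomerase, rose to 833 ± 149 CPM with BO-112, against 547 ± 58.1 CPM with vehicle (log2 fold change 0.60 ± 0.16, adjusted p = 0.0251), a call lost without BO-112 4, without any one of the vehicle tumours, without the muscle-rich libraries and with a replicate block. Pgk1, the first ATP-yielding step, rose to 1076 ± 186 CPM, against 692 ± 47.2 CPM (log2 fold change 0.62 ± 0.15, adjusted p = 0.0137), a call lost without vehicle 3. Gapdh, often used as a reference gene, stood at 3405, 2885, 3011 and 4054 CPM in BO-112 tumours, 2462, 2396, 3455 and 3056 CPM in DMXAA tumours, 3188, 2899.8, 3023 and 2945 CPM in tumours given both agents, and 2819, 3034 and 2425 CPM in vehicle tumours. BO-112 and vehicle tumours overlapped, and BO-112 4 was again the highest. The change of Gapdh was 0.27 ± 0.16 (95% interval -0.071 to 0.61, adjusted p = 0.313), smaller than that of any called enzyme. Pgam1 and Eno1 averaged 441 ± 59.1 and 1742 ± 216 CPM with BO-112, and 319.8 ± 37.8 and 1343 ± 107 CPM with vehicle, with adjusted p-values of 0.214 and 0.109.

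Eno2, the neuronal enolase, was the least abundant member and stood at 3.65, 3.88, 2.56 and 4.11 CPM in BO-112 tumours, 2.45, 0.641, 1.00 and 0.843 CPM in DMXAA tumours, 2.59, 2.85, 1.94 and 3.00 CPM in tumours given both agents, and 0.747, 0.817 and 1.22 CPM in vehicle tumours. The BO-112 tumours and those given both agents were all above the vehicle tumours, while among the DMXAA tumours DMXAA 1 alone was above them. Eno2 rose 3.86-fold with BO-112 (log2 fold change 1.95 ± 0.38, adjusted p = 0.00319). At 8 or more reads per library its counting error is larger than that of the other members. Per kilobase, Eno2 stood at 1.27 ± 0.246 CPM and Eno1 at 859 ± 106 CPM in BO-112 tumours, so Eno1 was the main form.

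Pkm, pyruvate kinase, averaged 2340.4 ± 301 CPM in BO-112 tumours and 1714 ± 252 CPM in vehicle tumours and missed the threshold (log2 fold change 0.45 ± 0.14, adjusted p = 0.0517). Ldha, which turns pyruvate into lactate, stood at 1056, 1103, 1151 and 1498 CPM in BO-112 tumours, 778, 1331, 1144 and 896 CPM in DMXAA tumours, 1007, 1041, 1020.5 and 932 CPM in tumours given both agents, and 779.9, 843 and 743 CPM in vehicle tumours. Its BO-112 tumours were all above the vehicle tumours, and DMXAA 2 and DMXAA 3, the libraries with a transcript length shift, were the highest of their group. Ldha rose 1.51-fold with BO-112 (log2 fold change 0.60 ± 0.17, adjusted p = 0.0328), a call lost without any one of BO-112 3 and 4 and the 3 vehicle tumours, with a replicate block (adjusted p = 0.0547) and without the muscle-rich libraries (0.70, adjusted p = 0.0629). Pdk1, the kinase that keeps pyruvate out of mitochondrial oxidation, stood at 82.0, 93.7, 77.9 and 113 CPM in BO-112 tumours, 63.3, 59.1, 66.7 and 65.9 CPM in DMXAA tumours, 89.1, 89.7, 86.7 and 84.3 CPM in tumours given both agents, and 86.4, 66.0 and 64.3 CPM in vehicle tumours. BO-112 and vehicle tumours overlapped through vehicle 1, and the DMXAA tumours lay within 59.1 to 66.7 CPM. Pdk1 did not pass the test against vehicle (log2 fold change 0.34 ± 0.13, adjusted p = 0.107). Processed copies of Eno1, Tpi1, Pgam1 and Ldha (Eno1b, Tpi-rs11, Pgam1-ps1 and Ldha-ps) are measured in the same table, so reads of these enzymes may be shared with them and their levels carry that uncertainty.

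**Figure D2:**
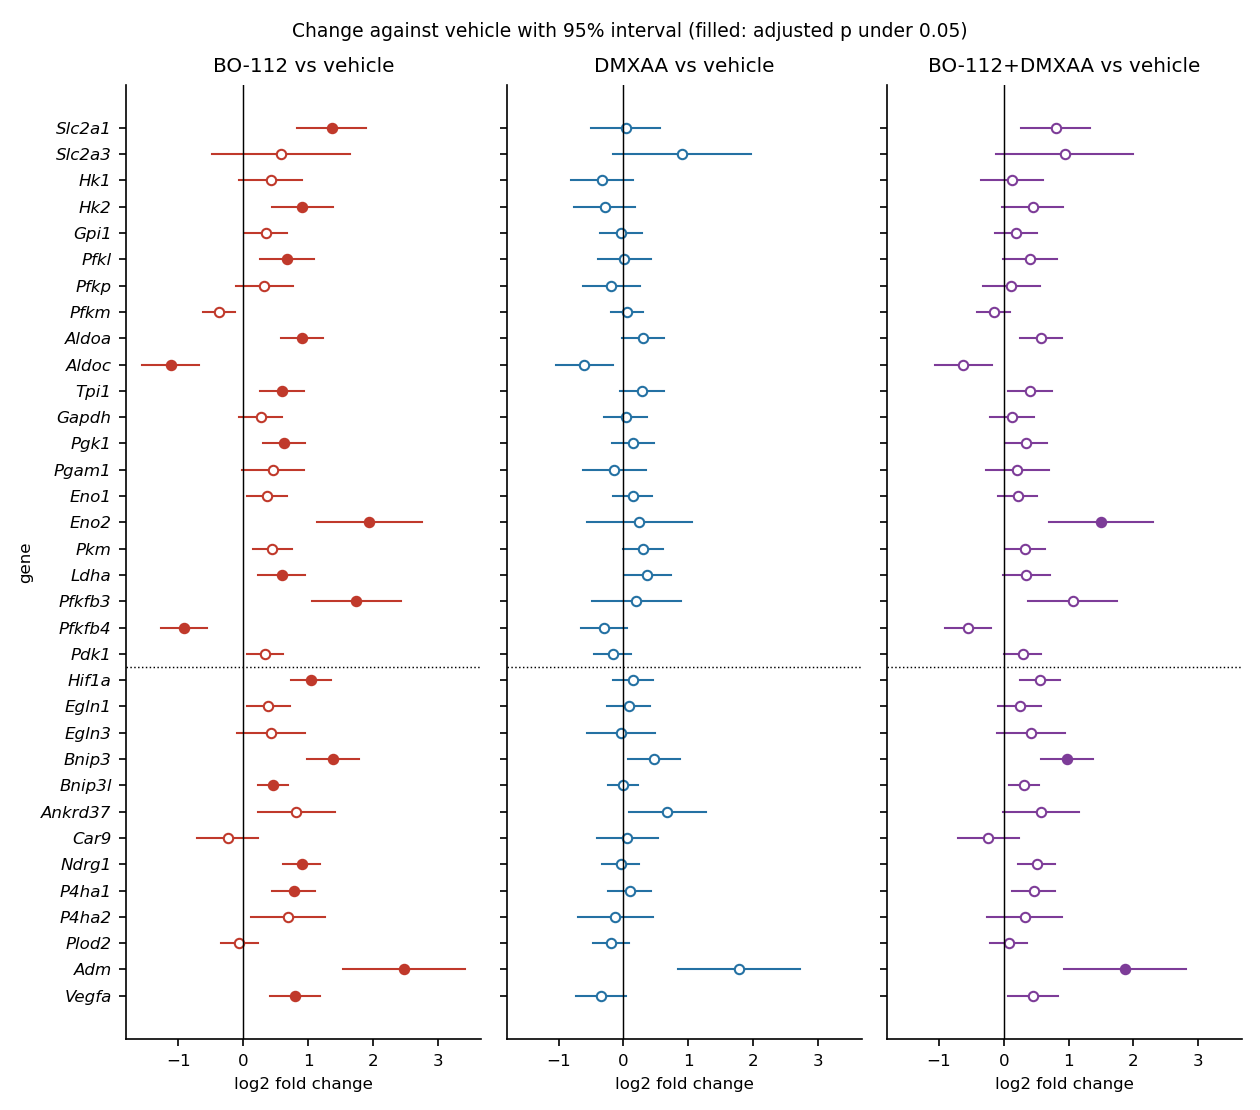
Log2 fold change of each of the 34 genes against vehicle with its 95% interval from limma, not adjusted over genes, for BO-112, DMXAA and BO-112 with DMXAA. Filled points have an adjusted p under 0.05, which are 18 genes with BO-112, 0 with DMXAA and 3 with both, and the dotted line parts glycolysis genes (above) from hypoxia genes.

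Oxygen sensing runs through HIF-1α and its hydroxylases. Hif1a (ENSMUSG00000021109.14), which encodes HIF-1α, stood at 341, 307, 333 and 381 CPM in BO-112 tumours, 220.3, 161, 164 and 193 CPM in DMXAA tumours, 259, 247, 192 and 283 CPM in tumours given both agents, and 166, 179.7 and 151 CPM in vehicle tumours. All 4 BO-112 tumours were above the other 11, and the tumours given both agents were above the vehicle tumours. Hif1a rose 2.06-fold with BO-112 (log2 fold change 1.04 ± 0.14, adjusted p = 0.000224), within 0.98 to 1.10 when each library was left out. Egln1 and Egln3, the hydroxylases PHD2 and PHD3, averaged 148 ± 35.0 and 49.9 ± 14.1 CPM with BO-112, and 111 ± 11.4 and 37.0 ± 9.56 CPM with vehicle, and neither passed the test (adjusted p = 0.124 and 0.301).

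Among the targets, the mitophagy receptors differed in size of change. Bnip3 (ENSMUSG00000078566.9), a classical HIF-1 target that tags mitochondria for removal, stood at 93.1, 92.6, 85.1 and 152 CPM in BO-112 tumours, 44.9, 67.7, 53.2 and 55.1 CPM in DMXAA tumours, 82.8, 76.1, 72.8 and 77.9 CPM in tumours given both agents, and 46.2, 39.9 and 33.2 CPM in vehicle tumours. The BO-112 tumours and those given both agents were all above the highest DMXAA and vehicle tumours. Bnip3 rose 2.61-fold with BO-112 (log2 fold change 1.38 ± 0.19, adjusted p = 0.000171), the smallest adjusted p of the members. Its relative Bnip3l, also called NIX, stood at 103, 109, 104 and 139.8 CPM in BO-112 tumours, 78.7, 80.3, 79.7 and 87.8 CPM in DMXAA tumours, 103, 106, 97.6 and 102 CPM in tumours given both agents, and 85.0, 75.6 and 85.7 CPM in vehicle tumours. The BO-112 tumours were above all vehicle tumours, and DMXAA and vehicle tumours overlapped. Bnip3l rose 1.38-fold with BO-112 (log2 fold change 0.46 ± 0.11, adjusted p = 0.0115), a call lost without vehicle 2, without the muscle-rich libraries (0.45, adjusted p = 0.0941) and with scaling by total count, where the change was 0.30.

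Secreted vascular factors were among the members that rose. Adm (ENSMUSG00000030790.16), which encodes the vasodilator adrenomedullin, stood at 17.2, 13.25, 11.3 and 37.2 CPM in BO-112 tumours, 15.6, 5.17, 11.2 and 15.3 CPM in DMXAA tumours, 11.3, 13.5, 9.17 and 12.5 CPM in tumours given both agents, and 5.23, 1.85 and 3.23 CPM in vehicle tumours. BO-112 4 held more than any other tumour, and without it the remaining BO-112 tumours were still above the vehicle tumours. Adm rose 5.59-fold with BO-112 (log2 fold change 2.48 ± 0.44, adjusted p = 0.00159), the largest change of the members. Vegfa (ENSMUSG00000023951.19), the main growth factor of blood vessels, stood at 408, 314, 338 and 522 CPM in BO-112 tumours, 186, 137, 164 and 218 CPM in DMXAA tumours, 296, 317, 264 and 334 CPM in tumours given both agents, and 245, 195 and 229 CPM in vehicle tumours. All BO-112 tumours, and all tumours given both agents, were above all vehicle tumours, and 3 of the 4 DMXAA tumours were below them. Vegfa rose 1.75-fold with BO-112 (log2 fold change 0.81 ± 0.18, adjusted p = 0.00829), a call lost when the 4 muscle-rich libraries were left out.

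**Figure D3:**
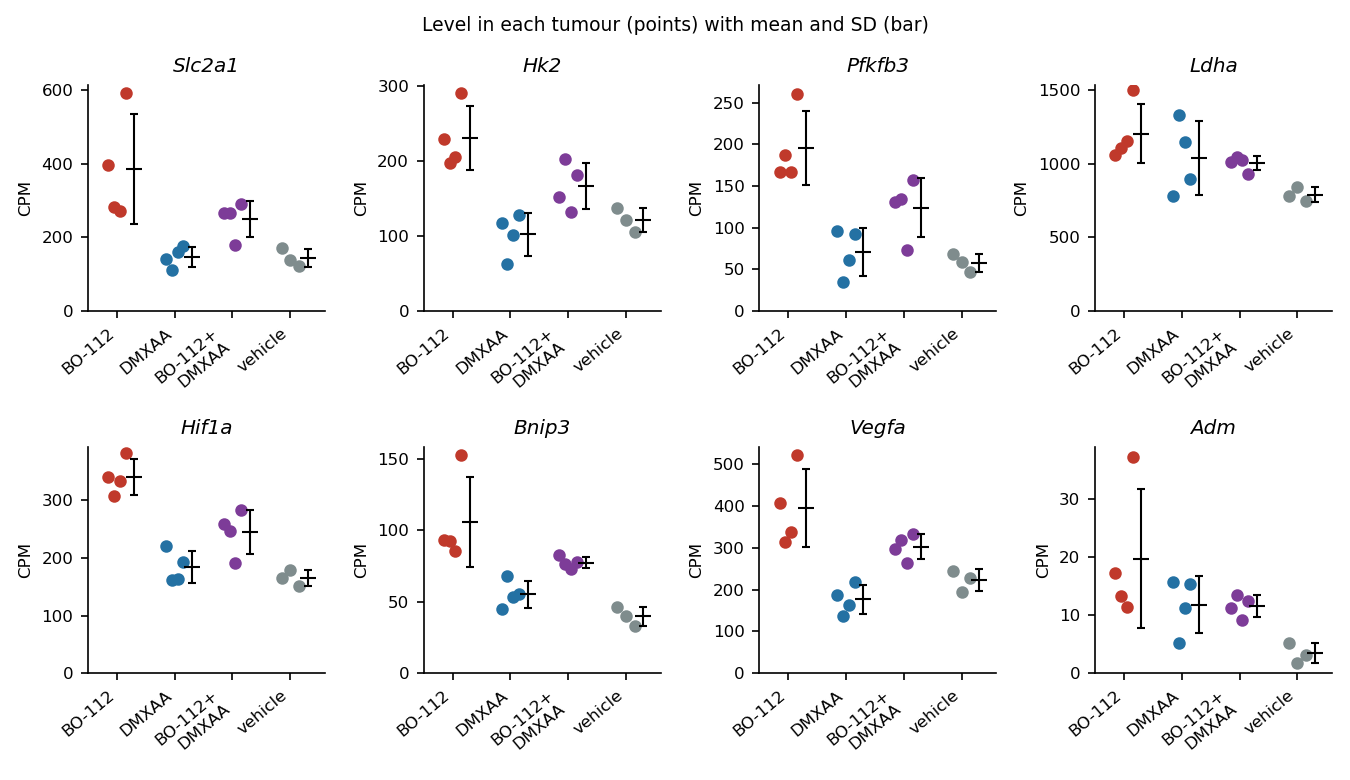
CPM of 8 members in each tumour (points) with the group mean and SD, for BO-112, DMXAA, BO-112 with DMXAA and vehicle. In all 8 panels the BO-112 points lie above all vehicle points, and BO-112 4 is the top point.

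Ndrg1, a stress-responsive gene known to be induced by low oxygen in many cell types, stood at 328, 281, 281 and 365 CPM in BO-112 tumours, 156, 167, 162 and 164 CPM in DMXAA tumours, 248, 295, 199 and 215 CPM in tumours given both agents, and 184, 156 and 162 CPM in vehicle tumours. The BO-112 tumours were above all DMXAA and vehicle tumours, and the DMXAA tumours lay closely together. Ndrg1 rose 1.87-fold with BO-112 (log2 fold change 0.90 ± 0.13, adjusted p = 0.000421). P4ha1, a subunit of the enzyme that hydroxylates collagen, stood at 371, 414, 359 and 572 CPM in BO-112 tumours, 233, 271, 279 and 268 CPM in DMXAA tumours, 368, 344, 343 and 299 CPM in tumours given both agents, and 293, 234 and 215 CPM in vehicle tumours. It was higher in every BO-112 tumour, and in every tumour given both agents, than in any vehicle tumour. P4ha1 rose 1.72-fold with BO-112 (log2 fold change 0.78 ± 0.16, adjusted p = 0.00375). The other collagen-modifying members, P4ha2 and Plod2, averaged 100.98 ± 42.2 and 159 ± 21.9 CPM with BO-112, and 61.3 ± 21.7 and 166 ± 30.1 CPM with vehicle (log2 fold changes 0.69 ± 0.27 and -0.057 ± 0.13, neither called).

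Not all of the classical markers moved. Car9, the carbonic anhydrase that is widely used as a marker of hypoxic tumour cells, stood at 3.98, 2.91, 2.56 and 4.31 CPM in BO-112 tumours, 5.22, 3.21, 4.54 and 3.81 CPM in DMXAA tumours, 3.51, 3.22, 3.33 and 3.34 CPM in tumours given both agents, and 4.59, 3.54 and 3.83 CPM in vehicle tumours. The tumours given both agents lay just below the vehicle tumours, the BO-112 and DMXAA tumours overlapped with them, and all levels were low. The change of Car9 with BO-112 was -0.24 ± 0.22 (95% interval -0.71 to 0.23, adjusted p = 0.557). Ankrd37, another HIF-1 target, averaged 8.28 ± 2.72 CPM with BO-112 and 4.83 ± 2.23 CPM with vehicle (log2 fold change 0.82 ± 0.28, adjusted p = 0.0681).

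The ratio between related genes in 1 tumour does not depend on how that library was scaled. The ratio of Pfkfb3 to Pfkfb4 was 9.72 to 20.7 with a median of 11.1 in BO-112 tumours, 1.48 to 4.13 with a median of 3.22 in DMXAA tumours, 3.85 to 8.28 with a median of 6.62 with both agents and 1.44 to 2.63 with a median of 2.09 in vehicle tumours. The BO-112 ratios and those with both agents were above all vehicle ratios, without overlap between them. For Aldoa to Aldoc the ratio was 299 to 472 with a median of 413 with BO-112, 114 to 263 with a median of 190.1 with DMXAA, 181 to 292 with a median of 214 with both agents and 86.2 to 110.0 with a median of 95.3 with vehicle, and here the 3 treated groups were all above the vehicle tumours. Hk2 to Hk1 was 0.956 to 1.21 with a median of 1.12 with BO-112, 0.713 to 0.873 with a median of 0.819 with DMXAA, 0.898 to 1.14 with a median of 0.948 with both agents and 0.746 to 0.849 with a median of 0.755 with vehicle. Pfkl to Pfkm was 4.18 to 6.99 with a median of 4.76 with BO-112, 1.58 to 3.37 with a median of 2.47 with DMXAA, 3.28 to 4.21 with a median of 3.57 with both agents and 2.25 to 2.65 with a median of 2.49 with vehicle. In all of these pairs the BO-112 ratios did not overlap the vehicle ratios. The members of a pair differ in transcript length, so a ratio gives the balance of reads and not of molecules. These pairs were chosen after their values were seen, and no test was made on the ratios.

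**Figure D4:**
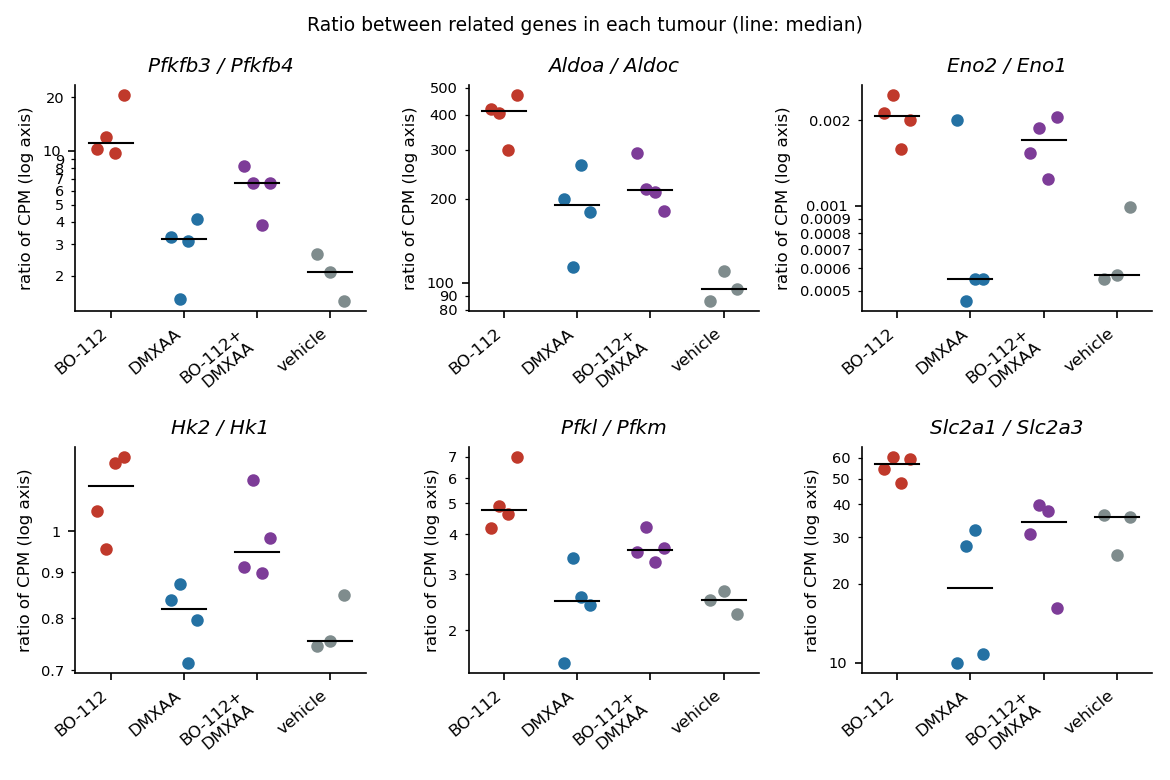
Ratio of CPM between 6 pairs of related genes in each tumour, on log axes, for BO-112, DMXAA, BO-112 with DMXAA and vehicle, with a line at each group's median. The BO-112 points lie above the vehicle points in each panel.

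The promoter windows of 4 members are shown as examples of each direction of change with BO-112: Bnip3, with the smallest adjusted p, and Pfkfb3 rose, and Pfkfb4 and Aldoc were the members that fell. The windows are from RefSeq on GRCm38.p6 and run from 250 bases before to 50 bases after the start of the gene, 5′ to 3′ on the strand of the gene. Capitals mark the cores ACGTG and GCGTG on either strand. ACGTG overlaps the E-box CACGTG, which holds it on both strands. Where RefSeq gives a gene several starts, the window with the most cores is printed. The windows are chr7:138909457-138909756 on the minus strand for Bnip3, chr2:11502041-11502340 on the minus strand for Pfkfb3, chr9:108991652-108991951 on the plus strand for Pfkfb4 and chr11:78322823-78323122 on the plus strand for Aldoc.
Bnip3: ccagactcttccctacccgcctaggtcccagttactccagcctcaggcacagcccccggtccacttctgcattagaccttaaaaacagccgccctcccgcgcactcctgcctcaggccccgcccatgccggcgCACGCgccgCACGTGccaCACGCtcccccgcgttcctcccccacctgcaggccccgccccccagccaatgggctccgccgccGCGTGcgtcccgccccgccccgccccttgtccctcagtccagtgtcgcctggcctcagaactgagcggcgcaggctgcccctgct
Pfkfb3: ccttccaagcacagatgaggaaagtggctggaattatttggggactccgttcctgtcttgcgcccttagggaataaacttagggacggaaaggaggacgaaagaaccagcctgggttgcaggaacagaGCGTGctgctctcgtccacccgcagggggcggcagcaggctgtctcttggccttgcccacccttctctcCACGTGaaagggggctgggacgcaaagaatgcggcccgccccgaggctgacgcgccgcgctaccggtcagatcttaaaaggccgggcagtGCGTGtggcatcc
Pfkfb4: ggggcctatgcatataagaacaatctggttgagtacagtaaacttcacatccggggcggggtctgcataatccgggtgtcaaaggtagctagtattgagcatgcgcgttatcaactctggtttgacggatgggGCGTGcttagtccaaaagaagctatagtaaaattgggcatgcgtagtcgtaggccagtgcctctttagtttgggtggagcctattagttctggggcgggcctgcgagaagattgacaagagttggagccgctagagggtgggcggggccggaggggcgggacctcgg
Aldoc: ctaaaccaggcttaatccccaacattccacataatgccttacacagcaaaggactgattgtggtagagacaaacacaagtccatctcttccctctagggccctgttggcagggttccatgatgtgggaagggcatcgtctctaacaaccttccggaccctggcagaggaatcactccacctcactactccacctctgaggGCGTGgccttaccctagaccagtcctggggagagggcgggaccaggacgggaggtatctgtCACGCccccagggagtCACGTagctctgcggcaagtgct

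Counted over both strands, the window of Bnip3 held 5 cores, that of Pfkfb3 4, that of Aldoc 3 and that of Pfkfb4 1. CACGTG was present in Bnip3 and Pfkfb3. Of the 34 members, 30 had a window, and 27 of these (90%) held at least 1 core in a window, against 64.5% of the 11863 measured genes with a window. Some genes have several windows. Counted by window, 79.5% of the 44 windows of members held a core, against 58.8% of the 15091 windows of measured genes. ACGTG alone was present in 21 members (70%), against 28.1% of the measured genes. The members were chosen as genes of glycolysis and the hypoxia response, some of them known HIF-1 targets. Divided by their change with BO-112, cores were present in 12 of 14 that rose (85.7%), in both that fell, and in 13 of 14 that were not called (92.9%). A match is a description of the letters and does not show binding.

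DMXAA alone called 0 of the 34 members against vehicle, where 1.08% of all genes were called higher and 1.25% in either direction. The groups did not overlap for 1 member, Aldoa, which was higher, and the same held for 6.52% of all genes in that direction and 5.03% in the other. At an unadjusted p under 0.05 there were 5 members, and 3204 of all 17712 genes. Limma-voom also called 0 members. The median change was 0.04 on the log2 scale, and 20 changes were positive. Adm came closest, with 1.78 ± 0.44 (adjusted p = 0.0633), and passed the test without DMXAA 2 (2.14, adjusted p = 0.0154) and without BO-112 4 (1.78, adjusted p = 0.0446). In DMXAA 2, Adm stood at 5.17 CPM, within the vehicle range, while the other 3 DMXAA tumours lay above it. Aldoc changed by -0.61 ± 0.21 (adjusted p = 0.182), and fell by 0.77 without DMXAA 2 (adjusted p = 0.0457). Hif1a changed by 0.15 ± 0.14, Slc2a1 by 0.032 ± 0.25 and Vegfa by -0.35 ± 0.18 (95% interval -0.74 to 0.033), and none of these passed the test. DMXAA 2 was the lowest of its group for Slc2a1, Hk2, Pfkfb3, Eno2, Vegfa and Adm and the highest for Ldha, Bnip3 and Aldoc.

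These comparisons share the 3 vehicle tumours. With both agents, 3 of the 34 members rose against vehicle and 0 fell, where 2.49% of all genes were called higher, 0.181% lower and 2.67% in either direction. They were Bnip3 (log2 fold change 0.97 ± 0.19, adjusted p = 0.00813), Adm (1.87 ± 0.44, adjusted p = 0.0331) and Eno2 (1.498 ± 0.38, adjusted p = 0.049). At an unadjusted p under 0.05 there were 17 members, and 2034 of all 17712 genes. Of the 34 changes 30 were positive, and the median was 0.34. The ranges lay wholly above the vehicle tumours for 17 members, as they did for 9.92% of all genes, and wholly below them for 3 members and 6.58% of all genes. Hif1a missed the threshold with 0.56 ± 0.14 (adjusted p = 0.0544), as did Ndrg1 with 0.50 ± 0.13 (adjusted p = 0.0647) and Aldoa with 0.57 ± 0.15 (adjusted p = 0.0654). None of the 3 calls held without each library in turn: the number of members called was 7 without DMXAA 2, 6 without replicate 3 of both agents, 1 without vehicle 2 and without each of the other replicates of both agents, and 0 without vehicle 3. Without the 4 muscle-rich libraries it was also 0. Of all genes, 473 were called with all libraries, 768 without DMXAA 2 and 505 without replicate 3 of both agents. The number was 246 without vehicle 3 and 352 without the muscle-rich libraries.

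Against BO-112 alone, both agents called 0 of the 34 members and 0% of all genes, and limma-voom also called 0 members. At an unadjusted p under 0.05 there were 11 members, and 1690 of all 17712 genes. The change was negative for 29 members, with a median of -0.25. The groups did not overlap for 1 member that was higher and 6 that were lower, as for 4.12% and 6.11% of all genes. The smallest adjusted p was that of Hif1a (-0.48 ± 0.13, adjusted p = 0.225), whose ranges did not overlap, followed by Ndrg1 (-0.40 ± 0.12, adjusted p = 0.305) and Aldoc (0.49 ± 0.19, adjusted p = 0.428). Side by side against the same vehicle tumours, the changes with both agents and with BO-112 alone were 0.80 and 1.37 for Slc2a1, 1.06 and 1.75 for Pfkfb3, and 0.44 and 0.81 for Vegfa. The comparison of both agents with BO-112 alone passed the test for none of them, and the design leaves intervals such as -1.06 to -0.074 for Slc2a1.

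Against DMXAA alone, both agents called 1 member higher and 0 lower, where 0.717% of all genes were called higher. This was Vegfa (0.80 ± 0.17, adjusted p = 0.0386), higher in all 4 tumours given both agents than in any DMXAA tumour. The call was lost without any one of 8 libraries, among them DMXAA 2, DMXAA 3 and vehicle 1, and without the muscle-rich libraries (adjusted p = 0.209). The number of members called was 7 without DMXAA 1 and 5 without DMXAA 4, where the number of all genes called was 1765 and 1504, against 157 with all libraries. Ndrg1 (0.55 ± 0.12, adjusted p = 0.0537) and Pdk1 (0.46 ± 0.12, adjusted p = 0.0805) followed. The groups did not overlap for 10 members, all higher, as for 4.54% of all genes in that direction and 3.43% in the other. In Pdk1 the tumours given both agents held 84.3 to 89.7 CPM and the DMXAA tumours 59.1 to 66.7 CPM.

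The single agents differed from each other. BO-112 against DMXAA called 16 members higher and 2 lower, where 11.2% of all genes were called higher and 10.2% lower, with a median of 0.49. The smallest adjusted p-values were those of Ndrg1 (log2 fold change 0.95 ± 0.12, adjusted p = 0.00024), Vegfa (1.16 ± 0.17, adjusted p = 0.000493) and Hif1a (0.89 ± 0.13, adjusted p = 0.000608). The members called lower were Pfkm (-0.42 ± 0.11) and Pfkfb4 (-0.61 ± 0.15). The call of Pfkfb4 held without each library in turn, while that of Pfkm was lost without DMXAA 3. Pfkm stood at 60.2, 53.3, 51.4 and 53.9 CPM in BO-112 tumours and 81.4, 66.5, 79.8 and 66.6 CPM in DMXAA tumours. Its higher DMXAA values were those of the muscle-rich DMXAA 1 and DMXAA 3. The part of muscle in this call was not tested. Hk1, Pdk1 and P4ha2 passed the test here but not against vehicle, with changes of 0.75 ± 0.21, 0.51 ± 0.12 and 0.82 ± 0.25, while Adm did not (0.70 ± 0.41, adjusted p = 0.208). Adm was not the only such member. Of the 16 glycolytic enzymes, 7 were called higher against vehicle and 6 here, Hk1 among the 6. Aldoc, called lower against vehicle, was not called here. Without DMXAA 2 and DMXAA 3 the count was again 16 and 2. It was 6 and 0 when the 4 muscle-rich libraries were left out, and 9 and 0 when only the tumours of the single agents were fitted. Of all genes, 3783 were called with all libraries and 1936 without DMXAA 2 and DMXAA 3. The number was 791 without the muscle-rich libraries and 1262 in the fit to the single agents.

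The interaction asks whether adding DMXAA changed BO-112 tumours by another amount than it changed vehicle tumours. It called 0 of the 34 members, where 1.35% of all genes were called (0.198% positive and 1.15% negative). Limma-voom also called 0 members. At an unadjusted p under 0.05 there were 10 members, and 2605 of all 17712 genes. The smallest adjusted p-values were those of Adm (-2.40 ± 0.60, adjusted p = 0.0646), Aldoc (1.09 ± 0.28, adjusted p = 0.0701) and Bnip3 (-0.88 ± 0.25, adjusted p = 0.105). The means of Adm were 11.6 ± 1.87 CPM for both, 19.8 ± 11.9 CPM for BO-112, 11.8 ± 4.88 CPM for DMXAA and 3.44 ± 1.70 CPM for vehicle (SD, n = 4, 4, 4 and 3).

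Other genes of the same pathways were counted from wider lists. Of 28 further genes of glycolysis and lactate transport, 3 rose and 2 fell with BO-112, with a list median of 0.057, where 7.64% of all genes were called higher and 4.31% lower, so the share called was near that of all genes. Slc16a3, the lactate exporter MCT4 and a HIF-1 target, rose to 172 ± 30.8 CPM in BO-112 tumours, against 78.7 ± 11.04 CPM in vehicle tumours (log2 fold change 1.12 ± 0.15, adjusted p = 0.000207), and also rose with both agents (0.71 ± 0.15, adjusted p = 0.0196). The other 2 that rose were Slc2a6, the glucose transporter GLUT6 (1.51 ± 0.22), and Pgm1, a phosphoglucomutase (0.66 ± 0.15). Those that fell were Slc16a7, the monocarboxylate carrier MCT2 (-1.33 ± 0.24), and Pfkfb1 (-0.68 ± 0.18). Slc16a1, the carrier MCT1, averaged 119 ± 10.9 CPM with BO-112 and 90.04 ± 10.5 CPM with vehicle and did not pass the test. Of 7 genes of the pentose phosphate pathway 1 rose, Rpe (0.68 ± 0.16).

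Of 19 regulators of the HIF pathway, 1 rose with BO-112, Cited2 (0.60 ± 0.13, adjusted p = 0.00653), which competes with HIF-1α for a coactivator. Of all genes, 7.64% were called higher with BO-112. Epas1, which encodes HIF-2α, averaged 27.9 ± 7.49 CPM with BO-112, 28.8 ± 17.2 CPM with DMXAA, 27.8 ± 5.79 CPM with both agents and 28.7 ± 0.899 CPM with vehicle, without a call.

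Of 52 further hypoxia targets, 20 rose and 4 fell with BO-112, 4 rose with DMXAA and 9 with both agents. Of all genes, 7.64% were called higher and 4.31% lower with BO-112, 1.08% higher with DMXAA and 2.49% higher with both agents, and the medians of the list were 0.53, 0.083 and 0.29. The 3 with the smallest p in BO-112 tumours were Dusp1, a phosphatase of the MAP kinases (2.81 ± 0.36), Atf3, a stress-induced transcription factor (2.02 ± 0.27), and Edn1, the vasoconstrictor endothelin (2.90 ± 0.40). These genes are also known as targets of stress and inflammatory signalling, so the list is not one of hypoxia alone. Hilpda, a lipid droplet protein, rose to 46.8 ± 30.1 CPM with BO-112 and 44.6 ± 17.0 CPM with both agents, against 12.6 ± 0.307 CPM with vehicle (log2 fold changes 1.70 ± 0.39 and 1.75 ± 0.39). Ddit4, which restrains mTOR, averaged 100.6 ± 24.3 CPM with BO-112, 49.9 ± 12.7 CPM with DMXAA and 71.1 ± 24.1 CPM with vehicle and was not called against vehicle. Those with the smallest p among the 4 that fell were Ppfia4 (-2.21 ± 0.32), Fut11 (-0.49 ± 0.11) and Ang, an angiogenin (-1.52 ± 0.36). With DMXAA the smallest p-values were those of Plin2, the lipid droplet coat protein (0.99 ± 0.19), Angptl4, an inhibitor of lipoprotein lipase (2.13 ± 0.46), and Dusp1 (1.61 ± 0.36). With both agents they were those of Dusp1 (2.34 ± 0.36), Pgf, placental growth factor (1.99 ± 0.36), and Plin2 (0.95 ± 0.19).

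Mitochondrial genes did not rise with the glycolysis genes. Of 28 nuclear genes of the respiratory chain 0 were called with BO-112, with 26 negative changes and a median of -0.22. At an unadjusted p under 0.05 there were 0 of the 28, and 4647 of all 17712 genes. The BO-112 tumours lay wholly below the vehicle tumours for 10 of the 28, as they did for 16.8% of all genes. Of 13 genes of the citric acid cycle 1 fell, Idh3g (-0.37 ± 0.11). Of all genes, 7.64% were called higher and 4.31% lower with BO-112. In the DMXAA group the respiratory chain genes were higher in DMXAA 2 and DMXAA 3 than in the other 2 tumours, the same libraries as those with the transcript length shift, and that group's median of 0.40 came with 0 calls.

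**Figure D5:**
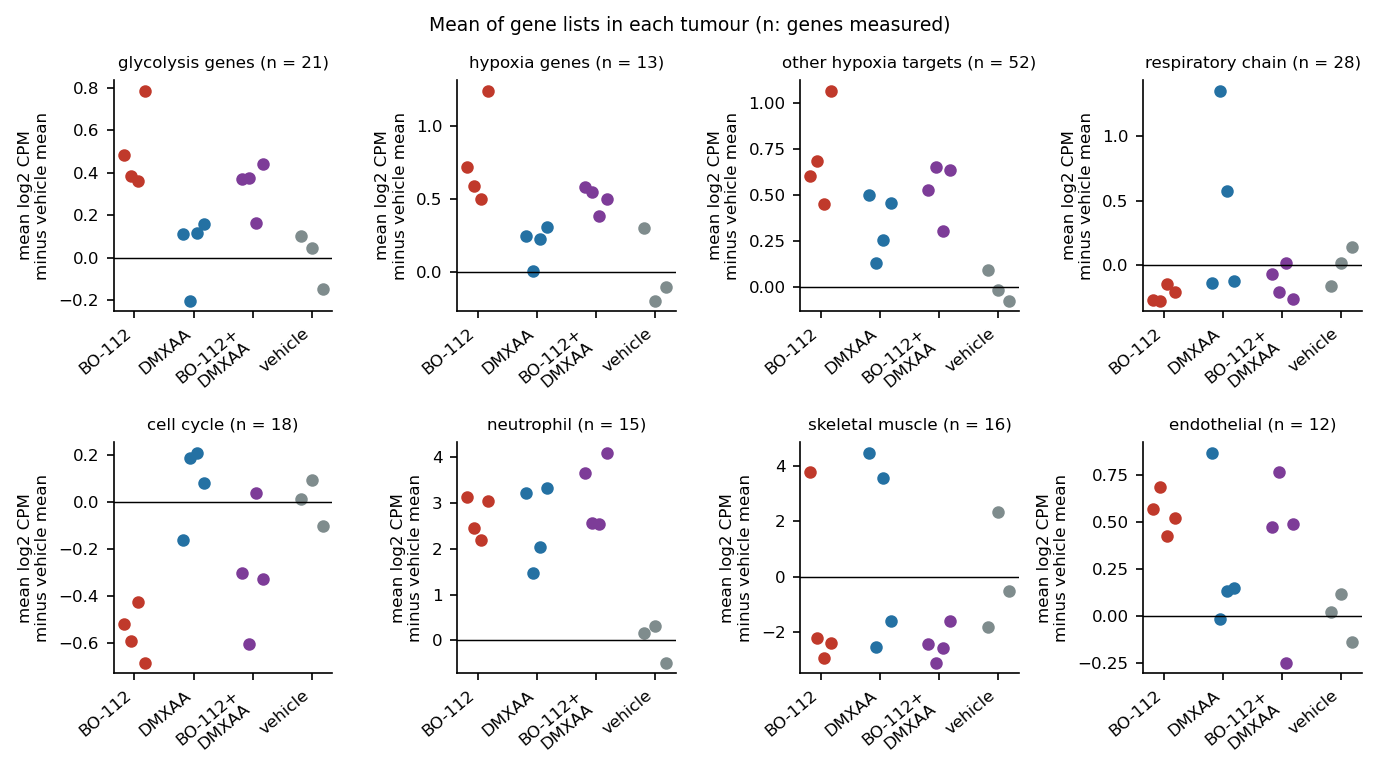
Mean log2 CPM of 8 gene lists in each tumour, minus the mean of the 3 vehicle tumours, for BO-112, DMXAA, BO-112 with DMXAA and vehicle. The glycolysis and hypoxia means of all BO-112 tumours lie above the vehicle tumours, their cell cycle means lie below, neutrophil means are raised in the 3 treated groups, and the muscle panel shows the 4 libraries that stand apart.

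Markers of other cells also differed between groups. Of 15 neutrophil markers, 8 rose and 0 fell with BO-112, 5 rose and 1 fell with DMXAA, and 9 rose and 0 fell with both agents. Of all genes, 7.64% were called higher and 4.31% lower with BO-112. These shares were 1.08% and 0.169% with DMXAA, and 2.49% and 0.181% with both agents. The summed level of the neutrophil markers was 661 to 726 CPM in BO-112 tumours and 153 to 396 CPM in DMXAA tumours. It was 295 to 645 CPM with both agents and 164 to 201 CPM in vehicle tumours. Ly6g, which defines mouse neutrophils, had 0 reads in every vehicle tumour and also in at least 1 BO-112 tumour. Of 12 endothelial markers 2 rose with BO-112 (416 to 492 CPM against 283 to 322 CPM in vehicle tumours), and of 13 macrophage markers 1 rose and 3 fell (5110 to 7366 CPM against 5525 to 6386 CPM). Of 18 cell cycle genes 12 fell, and 2 of the 3 measured epithelial carcinoma markers fell. The other epithelial marker had a positive change (2.25, not called) and lay wholly above the vehicle tumours. The part of these shifts in cell markers in the change of the glycolysis and hypoxia genes was not tested. With the level of the muscle markers as a covariate, 16 members rose and 2 fell with BO-112, as they did without it.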

How the data were processed

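RNA of 15 tumours was sequenced as 150 bp paired reads from a stranded mRNA kit, per the labels' protocols. STAR, edgeR, limma and the mm39 build are named in the submitters' processing notes; versions and strand use in counting are not given in the sources used here. The authors deposited normalized log2 CPM values for 17712 genes, which were used as they stand. From these, whole reads were recovered for 100% of values (tolerance 1e-06 reads), giving the depth of 12725316 to 19660511 reads and the input of the count-based alternatives. A raw count table whose 15 sample columns carry no sample names was not used. Gene symbols and lengths came from GENCODE M21 and matched 17636 genes.

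All 15 libraries were fitted together with limma 3.58.1 in R 4.3.3 (empirical Bayes with a mean trend, robust), with no covariate. The 6 differences between groups and the interaction were tested two-sided, and p-values were adjusted over all genes by the Benjamini-Hochberg method at 0.05. The model was tested on simulated data. Python 3.11.15, numpy 2.4.6, pandas 2.3.3 and matplotlib 3.10.9 were used for summaries and figures. Members described in full were the 14 with the smallest adjusted p against vehicle, with Gapdh, Ldha, Pdk1 and Car9, and the 3 with the smallest adjusted p in each other comparison. From the other lists up to 3 genes per direction and comparison were named by smallest p, with Slc16a3, Slc16a1, Epas1, Hilpda and Ddit4, and a few examples were chosen after their values were seen. The members and lists were chosen with earlier results of these data known. Alternatives were other scalings, a stricter filter, limma-voom, a replicate block, array weights, a muscle covariate, fits to 2 groups, and leaving out libraries.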

Additional observations from a re-analysis of the deposited data

Results flagged for a closer look

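Within the groups of 4 tumours, 1 library stood far from the other 3 for 3 members, by the gap to its nearest neighbour as a share of the group's range (above Dixon's 95% critical value, 102 groups tested, where chance gives about 1 in 20 groups). Tpi1, triose phosphate isomerase, had its highest level in BO-112 4, against 739 to 770 CPM in the other BO-112 tumours (share 0.885). Bnip3, the mitophagy receptor, reached 152 CPM in BO-112 4, against 85.1 to 93.1 CPM in the others (share 0.846). P4ha2, a collagen hydroxylase subunit, had 41.2 CPM in DMXAA 2, against 58.5 to 59.5 CPM in the other DMXAA tumours (share 0.956). Without BO-112 4 the rise of Bnip3 with BO-112 was still called, while that of Tpi1 was not.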

How the results depend on the processing

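Of the 18 members called with BO-112 against vehicle, 12 were called without each library in turn and 10 in every alternative (Aldoa, Aldoc, Eno2, Pfkfb3, Pfkfb4, Hif1a, Bnip3, Ndrg1, P4ha1 and Adm). Leaving out 1 library gave 13 to 23 called members for BO-112 against vehicle, 0 to 2 for DMXAA against vehicle, 0 to 7 for both agents against vehicle, 0 for both agents against BO-112, 0 to 7 for both agents against DMXAA, 14 to 20 for BO-112 against DMXAA and 0 to 2 for the interaction. For BO-112 against vehicle, the 13 came without vehicle 3, where 1269 of all genes were called. The 23 came without DMXAA 2, where 3524 of all genes were called. The number of all genes called was 25 to 376 for DMXAA and 246 to 768 for both agents against vehicle. It was 0 to 32 for both agents against BO-112 and 0 to 1765 for both agents against DMXAA. BO-112 against DMXAA gave 1879 to 5898, and the interaction 65 to 456.

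Scaling by total count gave 1 call for both agents against vehicle and 1 for the interaction, where 350 and 114 of all genes were called. For both agents against vehicle the geometric mean gave 2 and limma-voom 1, where 461 and 377 of all genes were called. A filter at 1 CPM in 4 libraries gave 2 for both agents against DMXAA, where 190 of all genes were called. Array weights gave 24 calls for BO-112 against vehicle, 1 for DMXAA, 12 for both agents, 1 for both against BO-112 and 3 for the interaction. The muscle covariate gave 2 for both agents against vehicle and 0 for both agents against DMXAA, where 409 and 0 of all genes were called. With the 4 muscle-rich libraries left out there were 11 for BO-112 and 0 for both agents against vehicle, 0 for both agents against DMXAA and 6 for BO-112 against DMXAA. Without DMXAA 2 and DMXAA 3 there were 25 for BO-112, 1 for DMXAA and 9 for both agents against vehicle, 1 for both against BO-112, 0 for both against DMXAA and 3 for the interaction. Fits to 2 groups gave 23 for BO-112 and 8 for both agents against vehicle, 0 for both against DMXAA and 9 for BO-112 against DMXAA; the interaction could not be fitted there. The number of all genes called moved as well. For BO-112 against vehicle it was 2116 in the main fit, 5006 with array weights and 4439 without DMXAA 2 and DMXAA 3. It was 4320 in the fit to 2 groups and 1090 without the muscle-rich libraries. For both agents against vehicle it was 473, 1403, 1004, 748 and 352 in the same order. With DMXAA against vehicle it was 221 in the main fit, 351 with array weights and 373 without DMXAA 2 and DMXAA 3. In that order it was 0, 313 and 206 for both agents against BO-112, and 239, 645 and 710 for the interaction. Both agents against DMXAA gave 157 genes in the main fit and 1 without the muscle-rich libraries. They gave 7 without DMXAA 2 and DMXAA 3, and 4 in the fit to 2 groups. The cause of these differences was not tested.

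No pairing by replicate number was detected: deviations of same-numbered tumours correlated with a mean of 0.0152 (-0.212 to 0.255, 21 pairs). Those of other-numbered tumours correlated with a mean of -0.00509 (-0.298 to 0.290, 63 pairs). The replicate block gave 16 calls for BO-112, 1 for DMXAA and 2 for both agents against vehicle, 19 for BO-112 against DMXAA and 1 for the interaction. Of all genes it called 1762, 283, 471, 3828 and 283 in the same order. With total-count scaling the median of all genes was -0.20 for BO-112 against vehicle and 0.23 for the interaction. In the main fit these medians were -0.04 and 0.019.

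Of 1647 values of named genes under an alternative, 1507 kept direction and call, 57 lost and 54 gained a call, and 29 changed sign, all for DMXAA against vehicle and none called. Total-count scaling gave -0.095 for Slc2a1, -0.028 for P4ha1, -0.094 for Gapdh and -0.069 for Car9. The replicate block gave -0.10 for Slc2a1 and -0.011 for Gapdh, array weights 0.034 and the muscle covariate 0.013 for Bnip3l. With the 4 muscle-rich libraries left out the values were -0.038 for Slc2a1, -0.013 for Pfkfb3, -0.37 for Eno2 and -0.26 for Car9, and without DMXAA 2 and DMXAA 3 they were 0.019 for Bnip3l, 0.017 for Hk2 and -0.0026 for Gapdh. Leaving out 1 library gave -0.091 to 0.030 for Ndrg1, -0.077 to 0.16 for Slc2a1, -0.15 to 0.50 for Eno2, -0.066 to 0.024 for Bnip3l, -0.068 to 0.11 for Gapdh and -0.055 to 0.18 for Car9. Depth limits Eno2, Car9 and Aldoc most.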
